A study of Homo sapiens with 72 samples.

Results

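In Cut&Tag a transposase is brought to a histone mark by an antibody and cuts out the nearby DNA for sequencing. The regions described here are the distal H3K4me2 regions of untreated REH cells that had no H3K4me2 peak in Raji cells. They were chosen by measured values, namely the peaks of 9 H3K4me2 libraries. Peaks of the 3 untreated REH libraries were merged into 17714 regions, of which 12859 were called in 3 of 3 libraries. Of these, 1558 lay more than 5 kb from every transcript start of a GENCODE protein-coding or lncRNA gene. No H3K4me2 peak of any of the 6 Raji libraries overlapped 822 of the 1558, and these 822 are the members. The other 736 met a peak in at least 1 Raji library, and 353 of them met one in all 6. At the distance limit the nearest region left out was 4957 bp from a start and the nearest one kept was 5006 bp away. A further 277 distal regions without a Raji peak were called in 2 of 3 REH libraries and left out.

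REH and NALM6 are cell lines of precursor B acute lymphoblastic leukemia (ALL), and Raji is a line of Burkitt lymphoma, a mature B cell cancer. Each line was left untreated or given 1 nM bryostatin, an activator of protein kinase C, overnight by the sample labels, and H3K4me2, H3K4me3 and H3K27me3 were profiled in 3 replicates of each group, 54 libraries in all. Each line stands for 1 leukemia or lymphoma, and no label says whether replicates came from separate cultures, so p-values measure the spread between libraries, which may be technical. The H3K4me2 libraries of REH held 13.75 to 22.85 M mapped reads, the untreated libraries of Raji 6.70 to 13.9 M and the treated ones of Raji 15.6 to 18.8 M, so a missing Raji peak is not read as absence of the mark. The 6 NALM6 libraries of replicate 1 carry another, unstated scaling and short peaks. H3K4me3 peaks lay within 1 kb of a start of CD79A, PAX5, RAG1, DNTT and IGLL1 in 3 of 3 untreated REH libraries, of VPREB1 in 0 of 3, and of CD3E, LYZ, EPCAM and COL1A1 in 0 of 3.

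H3K4me2 is found at promoters and at active or primed enhancers, H3K4me3 mainly at promoters, and H3K27me3 is laid down by Polycomb complexes at silenced genes. Away from promoters H3K4me2 is therefore often used to list enhancers, which differ between cell types more than promoters do. REH carries the ETV6-RUNX1 fusion, which joins the ETS family repressor ETV6 to RUNX1, a factor of blood cell formation. RUNX proteins bind the letters TGTGGTT and ETS proteins bind sites with a GGAA core.

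A run of at least 4 GGAA units in a row, on either strand, lay in 69 of the 822 regions (8.39%, Wilson 95% interval 6.69 to 10.5%). The share was 2.27% of the 353 regions shared with all Raji libraries (8 regions, 1.15 to 4.41%), 1.50% of 333 distal Raji regions that were chosen the same way and met no peak of the 6 REH libraries and 2.24% of the 12859 REH regions at any distance. Sequence played no part in the choice of the regions. The windows that follow are 300 bp at the highest H3K4me2 signal of the 3 regions of highest signal whose window holds the run, from the plus strand of hg38, with the runs of 4 or more units in capitals.
SHISAL1 region, chr22:44284616-44284915: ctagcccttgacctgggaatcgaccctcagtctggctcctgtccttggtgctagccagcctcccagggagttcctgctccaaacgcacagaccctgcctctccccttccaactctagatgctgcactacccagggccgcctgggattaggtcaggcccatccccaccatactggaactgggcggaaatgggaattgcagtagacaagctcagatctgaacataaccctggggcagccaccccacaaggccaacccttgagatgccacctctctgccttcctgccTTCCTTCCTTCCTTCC
BNIP5 region, chr6:36329896-36330195: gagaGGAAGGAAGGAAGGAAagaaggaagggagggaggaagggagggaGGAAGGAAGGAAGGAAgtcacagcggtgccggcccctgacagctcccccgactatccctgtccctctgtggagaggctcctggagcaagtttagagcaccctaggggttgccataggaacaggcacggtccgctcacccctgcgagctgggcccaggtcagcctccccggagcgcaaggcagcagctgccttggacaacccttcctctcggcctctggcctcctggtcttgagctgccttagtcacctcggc
LINGO1 region, chr15:77738556-77738855: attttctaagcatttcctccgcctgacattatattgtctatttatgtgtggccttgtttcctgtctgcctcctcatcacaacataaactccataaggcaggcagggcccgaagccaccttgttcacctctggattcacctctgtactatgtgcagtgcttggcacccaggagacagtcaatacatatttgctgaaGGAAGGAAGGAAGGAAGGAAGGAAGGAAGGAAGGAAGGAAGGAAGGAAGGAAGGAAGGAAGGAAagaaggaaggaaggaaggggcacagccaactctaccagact

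Each of the 3 windows lay in an intron of the gene it is named for. SHISAL1 encodes a small membrane protein, and LINGO1 a neuronal membrane receptor. The LINGO1 run reached 16 units, the most in any of the 822 regions. The 3 regions had a mean signal of 2.40 ± 0.23, 1.44 ± 0.22 and 1.29 ± 0.10 (SD, n = 3 untreated REH libraries) in the order printed, and none had an H3K4me2 peak in any of the 6 NALM6 libraries. Signal is given here and below as the total coverage of a region divided by its median in that library, taken over regions called in all 6 libraries of the line.

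Longer runs also took a higher share of the members. At least 6 units lay in 45 of the 822 regions (5.47%) and in 1.13% of the shared regions, and at least 10 units in 17 (2.07%) and 0.567%. Regions with a run were longer, with a median of 3760 bp against 2880 bp for the other members. In windows of a fixed 1000 bp at the highest signal the run was present in 4.87% of members, in 0% of the shared regions and in 0.601% of the Raji regions, and in windows of 300 bp in 1.58%, 0% and 0%. The run lay 11 to 3862 bp from the position of highest signal, with a median of 409 bp, and within 1 kb of it in 57 of 69 regions. The shares of single ETS sites lay close together. GAGGAAGT, the type that PU.1 binds, was in 5.35% of the 300 bp windows of members and 4.82% of those of shared regions, and ACAGGAAGT in 0.973% and 0.850%. These motif shares are descriptions and no test was run on them.

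**Figure D1:**
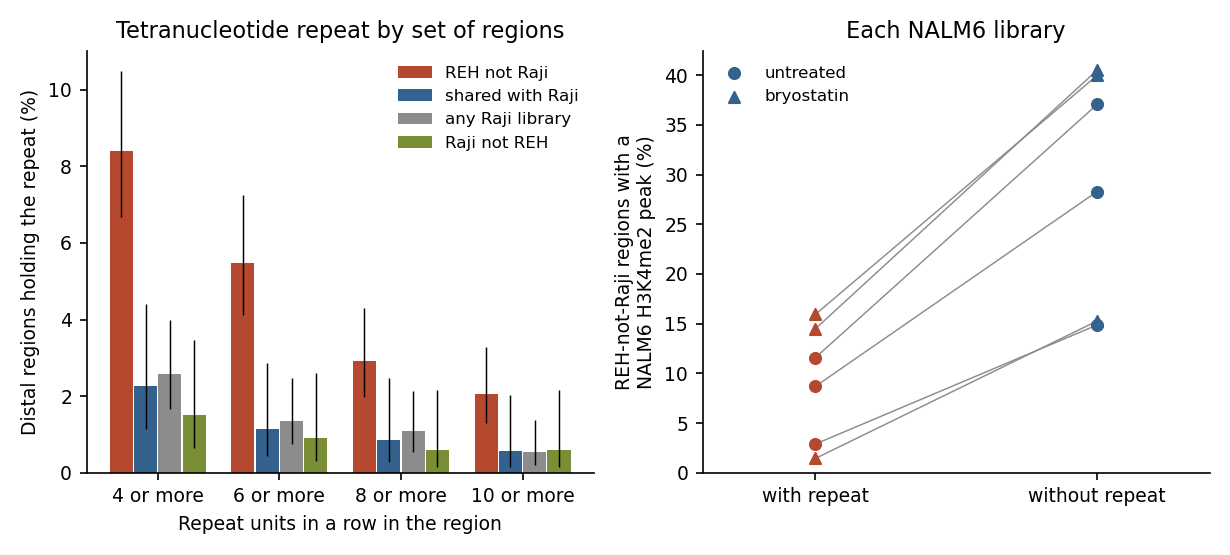
Left, percent of distal regions (vertical axis) that hold a run of at least 4, 6, 8 or 10 GGAA units (horizontal axis), for REH regions with no Raji peak, REH regions shared with all 6 Raji libraries, REH regions met in any Raji library and Raji regions with no REH peak; lines are Wilson 95% intervals. Right, percent of the 69 members with and the 753 without the run that had an H3K4me2 peak in each NALM6 library, lines joining a library; the share with the run was lower in all 6 libraries, 1.45 to 15.9% against 14.9 to 40.5%.

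Regions with the run were seldom marked in NALM6. In the 3 untreated NALM6 libraries an H3K4me2 peak lay on 2.90%, 8.70% and 11.6% of the 69 regions with the run and on 14.9%, 28.3% and 37.1% of the 753 without it. In the bryostatin-treated libraries the shares were 1.45%, 14.5% and 15.9% against 15.3%, 40.5% and 39.97%. No NALM6 peak in 6 libraries was seen on 58 of the 69 (84.1%) and on 419 of the 753 (55.6%). This split was chosen after the values had been seen and was not tested. The strongest region with a run, chr2:43188521-43202790 in an intron of LINC02580, held 14 units and had ZFP36L2, which encodes an RNA-binding protein of mRNA decay, as its nearest protein-coding gene. Its signal was 4.17, 4.92 and 4.79 in untreated REH, and it had a peak in 1 of 6 NALM6 libraries, with a signal of 0.248. A run of 4 units also lay in a region inside an intron of RUNX1 at chr21:35203961-35207860, which had no NALM6 peak.

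The RUNX letters TGTGGTT were in 5.60% of the 300 bp windows of members at the highest signal, 7.93% of those of shared regions and 7.51% of those of Raji regions. At the middle of the region the shares were 6.45% of members, 7.93% of shared regions and 8.11% of Raji regions, against 3.66% of all 12859 REH regions, and these differences were not tested. The windows of the 3 strongest members that hold the letters are shown, since the fusion of REH keeps the DNA-binding part of RUNX1, from the plus strand of hg38 with the letters of either strand in capitals.
SERINC5 region, chr5:80189256-80189555: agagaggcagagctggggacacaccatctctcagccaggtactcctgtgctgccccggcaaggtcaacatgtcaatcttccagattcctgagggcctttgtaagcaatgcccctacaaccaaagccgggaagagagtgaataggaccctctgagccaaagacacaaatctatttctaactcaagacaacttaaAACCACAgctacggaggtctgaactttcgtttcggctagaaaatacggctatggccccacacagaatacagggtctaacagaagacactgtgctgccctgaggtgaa
C14orf180 region, chr14:104394066-104394365: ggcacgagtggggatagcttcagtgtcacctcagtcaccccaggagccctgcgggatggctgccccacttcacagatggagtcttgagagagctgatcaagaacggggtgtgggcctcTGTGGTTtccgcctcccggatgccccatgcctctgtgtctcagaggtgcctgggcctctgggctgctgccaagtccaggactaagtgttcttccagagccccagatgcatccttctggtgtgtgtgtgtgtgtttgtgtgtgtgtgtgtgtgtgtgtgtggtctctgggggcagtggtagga
PPP1R37 region, chr19:45117266-45117565: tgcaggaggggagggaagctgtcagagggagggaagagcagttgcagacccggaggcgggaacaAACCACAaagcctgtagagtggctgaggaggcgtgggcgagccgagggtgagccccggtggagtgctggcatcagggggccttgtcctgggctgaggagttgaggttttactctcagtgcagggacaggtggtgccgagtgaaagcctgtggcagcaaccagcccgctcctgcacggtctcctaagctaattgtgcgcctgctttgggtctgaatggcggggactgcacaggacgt

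The SERINC5 window lay in an intron of SERINC5, a membrane protein that restricts retroviruses, and the PPP1R37 window in an intron of MARK4, a microtubule-regulating kinase. All 3 regions were also marked in NALM6, in 6, 5 and 5 of the 6 libraries in the order printed. The E-box CAGCTG was in 36.6% of member windows, 24.9% of shared windows and 29.7% of Raji windows. At the middle of the region, where all REH regions could be read the same way, it was in 29.4% of members and 18.6% of all 12859. The other E-box searched, CAGGTG, was in 25.9% of member windows, 28.05% of shared windows and 42.6% of Raji windows. At the middle CAGGTG was in 27.5% of members and 25.6% of all 12859, so the 2 E-boxes differed. E-boxes are bound by E proteins such as TCF3, which direct early B cell development. The octamer ATGCAAAT, bound by the B cell factor POU2F2 and its relative POU2F1, was in 0.608% of member windows, 2.27% of shared windows and 10.8% of Raji windows. EBF letters CCCNNGGG were in 31.8% of member, 34.3% of shared and 21.9% of Raji windows. AP-1 letters TGANTCA were in 7.06%, 8.22% and 12.9%. GC content of the windows had a median of 59.0% in members, 62.0% in shared regions and 54.0% in Raji regions.

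The highest signal of a member fell in an intron for 445 regions (54.1%), between genes for 338 (41.1%) and in an exon for 39 (4.74%). The shared regions were intergenic more often (56.1%) and intronic less often (40.2%). Members were 1110 to 20940 bp long, with a median of 2950 bp. The nearest protein-coding start was a median of 24846 bp away, and for 128 regions it was over 100 kb away. Members were frequent near chromosome ends, where 205 of 822 (24.9%) lay within 5 Mb of one, against 13.9% of the shared and 14.4% of the Raji regions. Their density was 0.266 per Mb over the genome, and it was highest on chromosome 17 with 0.685 and chromosome 21 with 0.557 and lowest, among chromosomes with a member, on X with 0.0641. Of the 822, 792 (96.4%) had a Raji peak of some mark within 50 kb. The Raji libraries pooled for this held up to 101702 peaks each, and the share was not taken for other regions. Members seldom stood side by side: 90 of them formed 45 pairs less than 10 kb apart, and there was no run of 3.

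The region of highest signal, chrX:56761891-56782830, lay in an intron of NBDY, which encodes a microprotein of the mRNA decapping complex. Its signal was 12.6, 15.3 and 14.9 in untreated REH and 12.7, 13.3 and 13.5 after bryostatin, with no H3K4me2 peak in any NALM6 library and an H3K4me3 peak in 3 of 3 untreated REH libraries. The second was chr17:81426041-81432870 in an intron of BAHCC1, a chromatin protein with a BAH domain, with 6.09, 8.04 and 7.77 in untreated REH. NALM6 marked the BAHCC1 region in every library, at 3.02, 5.86 and 4.69 untreated. The third was chr16:88919611-88928940 in an intron of CBFA2T3, a corepressor of the ETO family, with 5.55, 6.72 and 6.46 in untreated REH and 1.69, 2.23 and 2.66 in untreated NALM6. These 3 regions differed in NALM6 from no peak at all to a signal near that of REH, each on its own library scale.

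Other strong members lay in introns of GSE1, with a mean of 5.53 ± 0.58 (SD, n = 3), of ZMIZ1, a coregulator of transcription, with 4.36 ± 0.15, and of ZNF423, a zinc finger factor that interacts with EBF1, with 4.11 ± 0.26. One with 5.44 ± 0.46 lay in LINC01257, nearest to the adhesion receptor gene ADGRD1. One 37003 bp from a start of NOTCH1, a receptor gene of lymphoid cell fate, had 3.38 ± 0.21, and one 14145 bp from ELFN1, a synaptic adhesion gene, 3.38 ± 0.33. Among all members the median signal was 0.624, 0.597 and 0.556 in the 3 untreated libraries, against 0.859, 0.882 and 0.8005 for the shared regions, so most members were weaker than the median H3K4me2 region of REH.

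**Figure D2:**
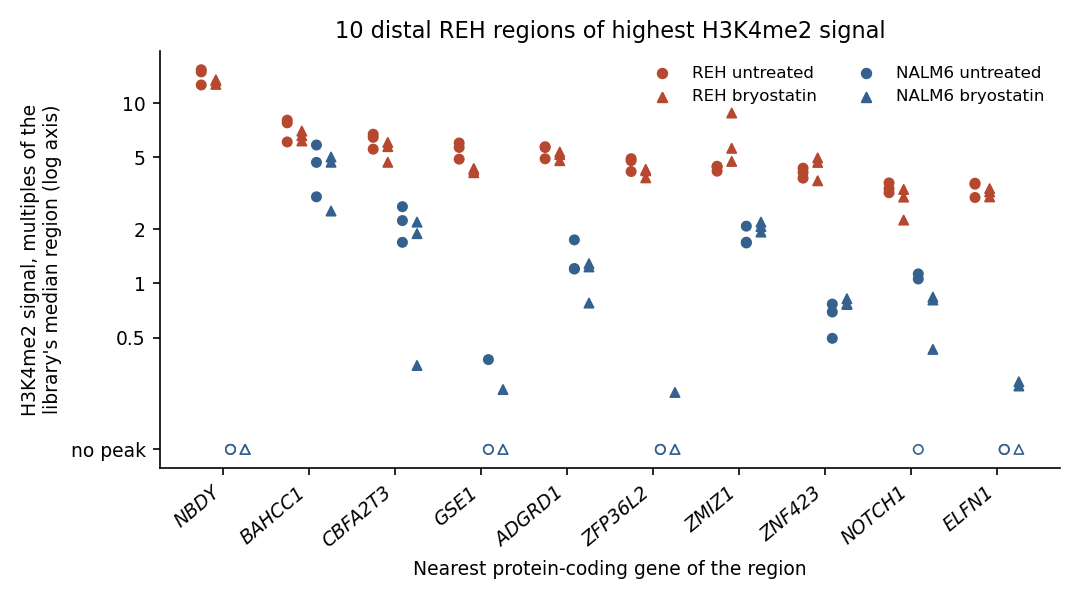
H3K4me2 signal (log axis, in multiples of the library's median region) of the 10 members of highest signal, each point a library, circles untreated and triangles bryostatin-treated, red REH and blue NALM6; open symbols at the foot mark libraries with no peak. The NBDY region stood at 12.6 to 15.3 in REH with no NALM6 peak, and the BAHCC1 region at 2.52 to 5.86 in NALM6.

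NALM6, the other precursor B line, took no part in the choice of members, so its peaks give a measure of how far the regions are shared between 2 leukemias. H3K4me2 peaks lay on 13.9%, 26.6% and 34.9% of members in untreated NALM6 and on 34.0%, 62.3% and 74.8% of the regions shared with Raji. After bryostatin the shares were 14.1%, 38.3% and 38.0% against 34.6%, 79.9% and 79.6%. Members were lower in all 6 libraries, by a mean of 33.2 ± 10.2 percentage points (SD, n = 6). The exact two-sided sign-flip permutation test over the 6 libraries gave p = 0.03125, the smallest it can give, and 0.0521 after Benjamini-Hochberg adjustment over the 5 exact tests run, which misses 0.05. Treated and untreated NALM6 libraries of 1 number deviated together, as did those of replicates 2 and 3, so the 6 differences are not fully independent. Without replicate 1 of both groups the mean difference was 39.7 points over 4 libraries. Of the 822 members, 477 (58.0%) had no peak in any NALM6 library and 63 (7.66%) had one in all 6.

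Members with more signal in REH were more often marked in NALM6, and at lower shares than shared regions of the same signal class. In the lowest of 4 classes of REH signal a peak was found on a mean of 16.4% of 240 members per NALM6 library and 30.6% of 55 shared regions. In the highest class it was 51.4% of 160 members and 80.2% of 156 shared regions. The members of highest signal with a peak in 3 of 3 untreated NALM6 libraries were those of BAHCC1, CBFA2T3, ADGRD1, ZMIZ1 and ZNF423. Those with none in 6 were the NBDY region, an intergenic region nearest to the zinc transporter gene SLC39A10 at chr2:195409801-195415330, one over an exon of FARS2 nearest to NRN1, which encodes the surface protein neuritin, at chr6:5826731-5833260, and 2 on the short arm of chromosome 8 nearest to MYOM2 and DLGAP2. The share of members with a peak in NALM6 was 25.1 ± 10.6% untreated and 30.1 ± 13.9% after bryostatin (SD, n = 3 each), which did not pass the exact permutation test (p = 0.50, with 0.1 the smallest possible). Between same-numbered libraries the share was higher after treatment in 3 of 3 pairs, by 4.99 ± 5.96 points (SD), and the exact sign-flip permutation test over the pairs, chosen after seeing the data, gave p = 0.25, the smallest that 3 pairs allow.

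**Figure D3:**
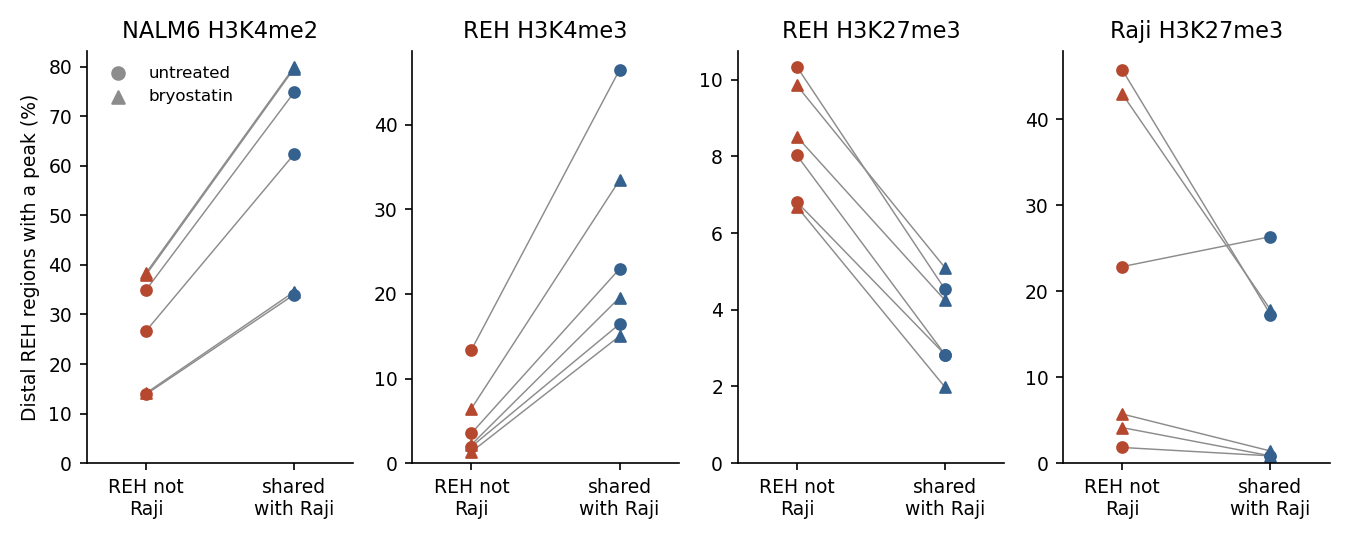
Percent of distal REH regions with a peak in each library (vertical axes, scaled per panel), for the 822 regions with no Raji H3K4me2 peak and the 353 shared with Raji; circles are untreated and triangles bryostatin-treated libraries, and lines join a library. The members were lower for NALM6 H3K4me2 and REH H3K4me3 and higher for REH H3K27me3 in 6 of 6 libraries, and higher for Raji H3K27me3 in 5 of 6.

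Few members carried H3K4me3, the mark of promoters, in REH. Peaks lay on 13.4%, 1.95% and 3.53% of members in untreated libraries and on 1.34%, 6.45% and 2.19% after bryostatin. The shared regions reached 46.5%, 16.4% and 22.9% and then 15.01%, 33.4% and 19.5%. Members were lower in 6 of 6 libraries, by a mean of 20.8 ± 7.66 percentage points (SD, n = 6, exact sign-flip permutation p = 0.03125, adjusted 0.0521). In untreated REH 712 members (86.6%) had no H3K4me3 peak in any library and 16 had one in 3 of 3, the regions of NBDY, BAHCC1, GSE1, ADGRD1, ZFP36L2 and SLC39A10 among them.

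H3K27me3, the Polycomb mark, was on more members than shared regions in REH itself. It lay on 10.3%, 8.03% and 6.81% of members in untreated REH and on 6.69%, 8.52% and 9.85% after bryostatin, against 1.98 to 5.10% of the shared regions. The difference was 4.79 ± 0.65 percentage points (SD, n = 6) and had the same sign in 6 of 6 libraries (exact sign-flip permutation p = 0.03125, adjusted 0.0521). Of the distal Raji regions a mean of 7.11% carried H3K27me3 in untreated REH and 7.21% after bryostatin, near the 8.39% and 8.35% of members. In 55 members (6.69%) the peak was present in 3 of 3 untreated REH libraries, and the SHISAL1 region was one of them. The part of the weaker H3K4me2 signal of members in these differences was not tested.

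In Raji, where the members had no H3K4me2 peak, the share with H3K27me3 varied widely between libraries. It was 1.82%, 22.9% and 45.7% untreated and 5.72%, 4.14% and 42.9% after bryostatin. In the same order the libraries held 819, 24143 and 73265 peaks and 3424, 2778 and 101702 peaks. The part of peak number in these shares was not tested. The shared regions had 0.850%, 26.3% and 17.3%, then 1.42%, 0.850% and 17.8%. Members were higher in 5 of 6 libraries, by 9.77 ± 13.5 percentage points (SD, n = 6), which did not pass the exact sign-flip permutation test (p = 0.125, adjusted 0.156). Against all 736 distal regions met in a Raji library the difference was 9.90 points with p = 0.03125, unadjusted, in the same exact test. H3K27me3 was present in 3 of 3 untreated Raji libraries on 15 members (1.82%). The strongest of these were the SHISAL1 region, one nearest to the proteasome assembly gene PSMG3, one nearest to FAM131C, one in ZMIZ1 and one nearest to FBRSL1. Raji H3K4me3 peaks met at most 0.243% of members in any library.

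Genes next to the members carried H3K4me3 at their start in REH more often than in Raji. The 822 regions had 676 genes as nearest protein-coding neighbour, of which 579 were nearest to 1 region. Among all 20033 protein-coding genes 2.59% had an H3K4me3 peak within 1 kb of a start in 3 of 3 untreated REH and 0 of 3 untreated Raji libraries. Among the 676 neighbours it was 75 (11.1%), among the 312 neighbours of shared regions 15 (4.81%) and among the 269 neighbours of Raji regions 7 (2.60%). The opposite pattern, 0 of 3 in REH and 3 of 3 in Raji, was seen in 2.17% of all genes, 11 neighbours of members (1.63%), 10 of shared regions (3.21%) and 18 of Raji regions (6.69%). Of neighbours up to 20 kb away 13.7% were called in REH alone, from 20 to 100 kb 9.02% and beyond 100 kb 7.53%. The nearest gene need not be the gene a region acts on.

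The 75 genes called in REH alone include BAHCC1, CBFA2T3, IGLL1, which encodes a chain of the surrogate light chain of the pre-B cell receptor, and ERG, an ETS factor of blood stem cells. They also include BCL11B, a T cell transcription factor, SOX11, an embryonic factor, FLT1, a receptor of vascular endothelial growth factors, ENG, a receptor of the TGF-beta family, and SPRY2, an inhibitor of growth factor signalling. Those genes were named after their values had been seen. Of the 75, 36 were also called in at least 2 untreated NALM6 libraries and 36 in none. The 11 with the opposite pattern hold CCR7, a chemokine receptor of mature lymphocytes.

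**Figure D4:**
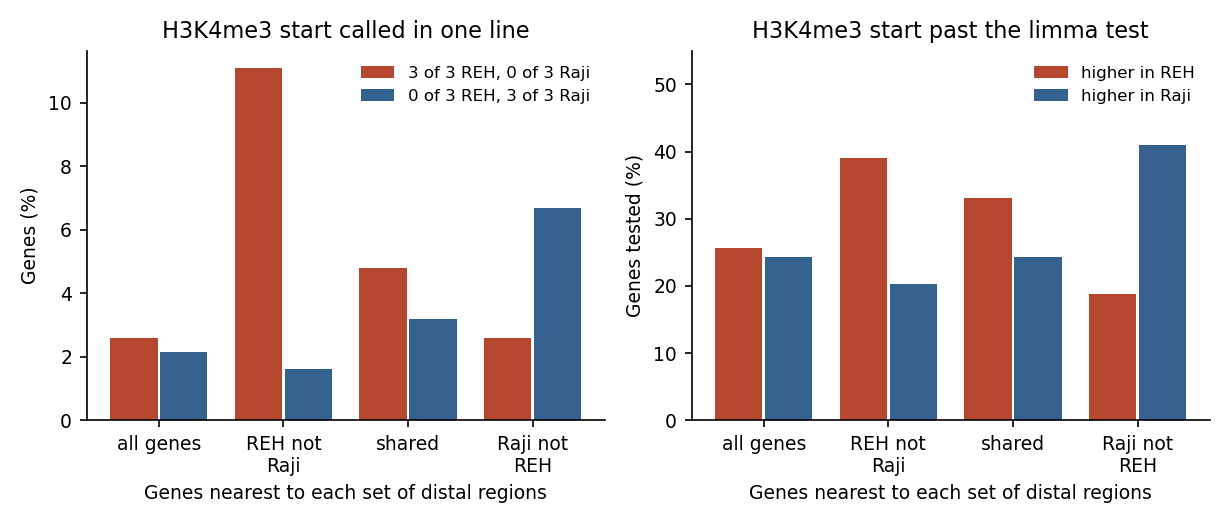
Left, percent of protein-coding genes with an H3K4me3 peak at a start in 3 of 3 libraries of one line and 0 of 3 of the other, for all genes and for the genes nearest to each set of distal regions. Right, percent of genes tested with limma (start called in all 6 libraries) whose H3K4me3 signal was higher in REH or in Raji at an adjusted p under 0.05; neighbours of members reached 39.1% and 20.3%, all genes 25.6% and 24.3%.

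Where a start was called in all 6 untreated libraries the signal could be compared with limma. This held for 7891 genes, of which 25.6% were higher in REH and 24.3% higher in Raji at a Benjamini-Hochberg adjusted p under 0.05, and for 266 of the 676 neighbours. Of these 104 (39.1%) were higher in REH and 54 (20.3%) higher in Raji, with a median difference of 0.12 on the log2 scale, against 0.01 over all genes tested. Neighbours of shared regions were higher in REH in 64 of 193 (33.2%) and neighbours of Raji regions in 28 of 149 (18.8%). The genes with no Raji peak could not enter this test. With the mean signal per base in place of the total 60 of the 266 neighbours (22.6%) were higher in REH and 17 (6.39%) higher in Raji. Of all genes tested 11.99% and 9.16% were.

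The largest differences were at BAHCC1 and NRN1. At BAHCC1 the start region measured 6.60, 6.99 and 8.06 times the median H3K4me3 region in REH and 0.0830, 0.186 and 0.202 in Raji (log2 difference 5.62, SE 0.28, limma adjusted p = 6.05e-07), the Raji peaks lying over 1 kb from the start. NRN1, whose start was nearest to 4 members, measured 5.13, 4.92 and 4.61 in REH and 0.0842, 0.118 and 0.118 in Raji (log2 difference 5.53, SE 0.14). TGIF1, a homeodomain repressor, differed by 4.09, SYNE3, a nuclear envelope protein, by 3.83 and TNRC6C, a protein of microRNA silencing, by 3.47. The groups did not overlap at any of the 5. In the other direction IQSEC1, an exchange factor of ARF GTPases, was lower in REH by 2.56 on the log2 scale although 5 members lay nearest to it. SMAD7, an inhibitor of TGF-beta signalling, was lower by 2.28, PALD1 by 2.04, TLE3, a corepressor, by 1.89 and LRRK1, a kinase, by 1.64. All 10 genes passed the limma test, with adjusted p of 0.000267 or less.

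Some genes were nearest to several members. ZMIZ1 was nearest to 8 regions and MAD1L1, a spindle checkpoint gene, to 7. GSE1 and IQSEC1 were nearest to 5 each, and NRN1, PRDM11, RUNX1 and PARD3, a cell polarity scaffold, to 4 each. ADGRD1 and ZFP36L2 followed with 3 each. All but 1 of the 8 regions of ZMIZ1 had an H3K4me2 peak in at least 4 NALM6 libraries, and the exception, chr10:79086971-79095380, had none and carried H3K27me3 in 3 of 3 untreated Raji libraries. The H3K4me3 signal of the ZMIZ1 start was 0.790, 0.667 and 0.742 in REH and 2.13, 1.66 and 1.38 in Raji, so the gene with the most members had the lower start signal in REH (log2 difference -1.21, SE 0.15, limma adjusted p = 0.000108). Of the 7 regions of MAD1L1, 4 were marked in 5 or 6 NALM6 libraries and 3 in none.

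Of 15 genes known from ETV6-RUNX1 leukemia 6 were nearest to a member, 2 to a shared region and 1 to a Raji region, where 3.37% of all protein-coding genes were nearest to a member. RUNX1 was nearest to 4 members, all in its introns, at chr21:35527421-35530590, chr21:35203961-35207860, chr21:34986481-34990140 and chr21:35239061-35241040, with mean signals of 0.96, 0.95, 0.67 and 0.51. The H3K4me3 signal of its start was 3.88, 3.82 and 4.12 in REH and 0.502, 0.680 and 0.566 in Raji, with no overlap (log2 difference 2.77, SE 0.11, limma adjusted p = 1.59e-07). CBFA2T3 was nearest to 2 members. ARHGEF4, a guanine nucleotide exchange factor, IGF2BP1, an RNA-binding protein of embryonic cells, ETV6 and TCFL5, a basic helix-loop-helix factor, were nearest to 1 each. CBFA2T3, ARHGEF4 and IGF2BP1 had a start called in 3 of 3 REH and 0 of 3 Raji libraries, and TCFL5 was higher in REH by 1.24 on the log2 scale (SE 0.12, limma adjusted p = 2.57e-05). ETV6 could not be tested, since its start was called in 2 of 3 REH libraries. A long gene such as RUNX1 has more room for regions, and length was not taken into account.

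The other lists had fewer members nearby, at 0 to 16% of their genes, against 3.37% of all protein-coding genes. Of 24 precursor B genes 3 (12.5%) were neighbours (ERG, IGLL1 and VPREB1, the partner of IGLL1 in the surrogate light chain). Raji regions were nearest to 2, with 4 regions at VPREB1. Of 27 B lineage transcription factors 3 (11.1%) were neighbours of members (BCL11A, ID3 and IKZF1) and 5 (18.5%) of shared regions. None of the 3 starts differed between REH and Raji in the limma test, with adjusted p of 0.719, 0.122 and 0.239. Of 25 T and NK genes 4 (16%) were neighbours, namely NOTCH1 with 2 regions, BCL11B, the T cell surface gene CD7 and the interleukin 2 receptor gene IL2RA. The NOTCH1 start measured 1.53, 1.61 and 1.64 in REH and 0.295, 0.363 and 0.462 in Raji (log2 difference 2.12, SE 0.15, limma adjusted p = 3.73e-06). CD7 and IL2RA had no H3K4me3 peak at a start in untreated REH.

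Of 22 genes of protein kinase C and diacylglycerol signalling, the pathway that bryostatin acts on, 3 (13.6%) were neighbours. They were the kinases PRKCB and PRKCQ and the diacylglycerol kinase DGKG. The PRKCB start was lower in REH, at 1.20, 1.27 and 1.20 against 1.80, 2.17 and 2.00 in Raji (log2 difference -0.70, SE 0.09, limma adjusted p = 0.000124). PRKCQ had a start peak in 2 of 3 REH and 1 of 3 Raji libraries and DGKG in 1 of 3 and 0 of 3, so neither was tested. Of 26 AP-1 and early response genes 2 (7.69%) were, the transcription factor gene FOS and the phosphatase gene DUSP1. Both FOS and DUSP1 had a higher start signal in REH, by 2.90 (SE 0.19) and 3.005 (SE 0.08) on the log2 scale, with limma adjusted p of 2.55e-06 and 1.89e-08. The remaining lists held 1 of 30 mature and germinal centre B genes (CCR7, 3.33%) and 1 of 24 stem and myeloid genes (CSF3R, 4.17%). They also held 0 of 14 erythroid and megakaryocyte genes and 2 of 15 epithelial, stromal and endothelial genes (PDGFRB and VWF, 13.3%).

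In REH 20 members rose with bryostatin in the test of total signal, and none passed it as lower. Treated and untreated libraries were compared by limma on the log2 of total signal, without pairing, over 10791 regions called in all 6 REH libraries. Of the 822 members 494 lay in such regions, and 20 of them (4.05%) were higher after treatment at an adjusted p under 0.05 and 0 were lower, where 1.42% of all regions tested were higher and 0.0371% lower. Of the shared regions 19 of 282 (6.74%) were higher. The changes of the 20 ran from 0.50 to 1.48 on the log2 scale, or 1.41-fold to 2.78-fold, and the median over the 494 was 0.06 against -0.02 over all regions. Members had to be called in the untreated libraries to be chosen, so regions that appear only with treatment are not among them, and a member with no peak in a treated library was not tested and could not be called lower. With same-numbered libraries taken as pairs 46 members (9.31%) were higher and 5 lower, against 266 and 39 of all 10791 regions. With the mean signal per base no member passed.

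Of the 3 members nearest to WNT7B, a WNT ligand gene, 2 rose and 1 was not tested, since it had no peak in a treated library. The region chr22:45995591-45998930, 18429 bp from its start, measured 0.646, 0.720 and 0.697 untreated and 1.53, 1.27 and 1.30 treated (log2 change 0.99, SE 0.10, limma adjusted p = 0.000234). The region chr22:46005521-46008030 measured 0.348, 0.464 and 0.404 and then 1.02, 0.753 and 0.812 (log2 change 1.08, SE 0.14, limma adjusted p = 0.001). In both regions the lowest treated library lay above the highest untreated one. The region not tested, chr22:45947271-45949850, measured 0.328, 0.352 and 0.338 untreated and 0.321 and 0.365 in 2 treated libraries, with no peak in the third.

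The largest change was in an intron of PXN, the gene of the focal adhesion protein paxillin, at chr12:120234161-120236600. Its values were 0.478, 0.473 and 0.363 untreated and 1.92, 0.548 and 0.993 treated, and the tested region, merged over the 6 libraries, changed by 1.48 (SE 0.31, limma adjusted p = 0.0304). It was the one called region whose tested groups overlapped. An intronic region of RALGPS1, an exchange factor of RAL GTPases, rose by 1.22 (SE 0.20), and one 51331 bp from YTHDF1, a reader of methylated RNA, measured 0.352, 0.391 and 0.361 and then 0.943, 0.834 and 0.667 (log2 change 1.13, SE 0.13, limma adjusted p = 0.000518). A region nearest to RGS3, a regulator of G protein signalling, rose by 0.98 (SE 0.12), one nearest to the elastin gene ELN by 0.95 (SE 0.17) and one nearest to RASD2, a small GTPase, by 0.86 (SE 0.12). Intronic regions of HIVEP3, a zinc finger factor, and EXD3 rose by 0.86 (SE 0.14) and 0.81 (SE 0.13). The other 10 called regions, with smaller changes, lay nearest to FBRSL1, NPHP4, ZFP36L2, LHX1, S1PR3, SPRY2, ADAMTSL2, CEBPB, PRKAR1B and NUDT14. Of the 20 regions, 2 held a GGAA run, and 9 of the 20 had no peak in any NALM6 library.

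**Figure D5:**
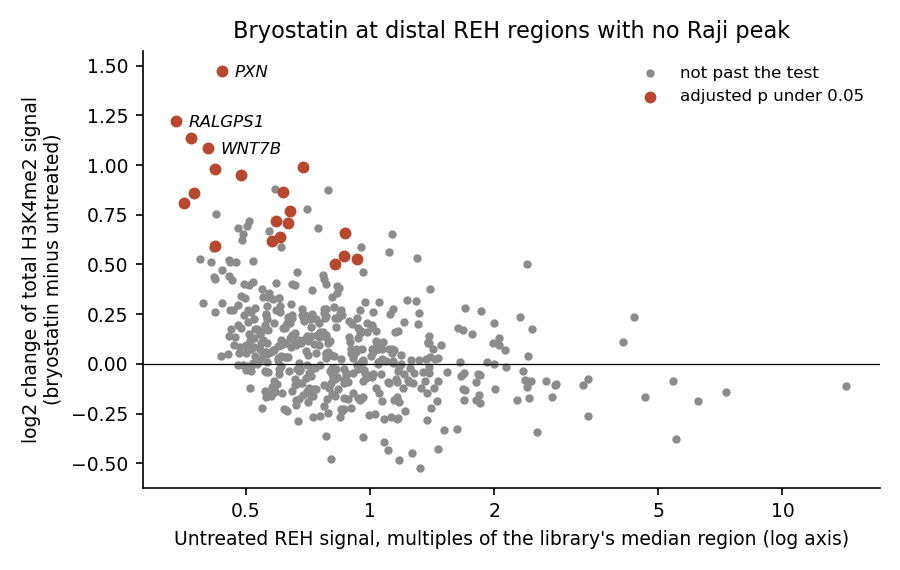
Change of total H3K4me2 signal with bryostatin in REH (vertical axis, log2, treated minus untreated) against the mean untreated signal (log axis, multiples of the library's median region) for the 494 members tested; red points passed the limma test at an adjusted p under 0.05. The 20 red points lie between 0.50 and 1.48, and both axes use the untreated values.

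Total signal grows with the length a peak is called at as well as with its height. With the mean signal per base no member passed the test, and 1 of all 10791 regions did. An unadjusted p under 0.05 was seen for 59 of the 494 members and 719 of all regions. Of the 20, 16 changed upward, and the lowest adjusted p of limma among them was 0.130. With the maximum signal 6 members were higher and 2 lower, against 44 and 7 of all regions. The third treated library had the fewest peaks of the REH libraries, 11119, and met 490 of 822 members against 822 and 787 in the other treated libraries. Without it 787 members were tested and 72 (9.15%) were higher, against 335 of all 12535 regions. Without the first treated library 5 of 494 were higher and 1 lower, against 56 and 6 of all 10791. Without the second treated library 10 of 495 were higher, against 71 of all 10797. Without the second untreated library it was 10 of 494, against 87 of all 10802. A fit blocked on the replicate number called 46 members higher and 5 lower, the 20 among them. No label says that equal numbers are pairs.

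In NALM6 no member passed the test for bryostatin. In all 6 libraries 4128 regions were called and 0% of them passed. Of the 66 members among them 0 passed limma's adjusted p. An unadjusted p under 0.05 was seen for 2 of the 66 and for 56 of all 4128 regions. The median change was -0.13 on the log2 scale over the 66 members and -0.02 over all 4128 regions. Without replicate 1 of both groups 213 members and 8891 regions were tested and 0 passed. An unadjusted p under 0.05 was then seen for 66 of the 213 and for 1250 of the 8891. The median change was -0.19 over these members and -0.02 over all regions, with 23% and 45.8% of changes upward. In simulated data with independent noise per library and no block, limma recovered 6% of log2 changes of 1 in NALM6 and 94% in REH. The simulation left out the shared deviation of same-numbered libraries and was not run without replicate 1. With recovery this low, the count of 0 in NALM6 is not read as absence of change.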

How the data were processed

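The authors trimmed the reads with Trim Galore, aligned them to hg38 with Bowtie2, computed coverage and ran SEACR on each library. Versions are not given in the sources used here. The deposited values used are each peak's total and maximum signal, that is, coverage in RPKM except in NALM6 replicate 1. Mapped reads were read from the RPKM step in 48 libraries. The authors' DESeq2 comparisons and IgG libraries were not used here.

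Peaks of chromosomes 1 to 22, X and Y were merged at 1 bp overlap. Transcript starts came from GENCODE 44. Total signal was taken as log2, centred on the median of regions called in all 6 libraries, and compared with limma 3.58.1 (eBayes, trend; R 4.3.3) with Benjamini-Hochberg adjustment over all regions or genes tested. Shares were compared by exact permutation tests (scipy 1.17.1). Motifs were searched on both strands of hg38. Members and gene lists were chosen with earlier results of these data known. The genes named are the 10 strongest members, the 10 neighbours of most members, up to 4 per list, up to 10 called members, 5 members each by NALM6 and Raji H3K27me3 status, and 5 neighbours in each direction by H3K4me3, apart from genes said to be named after their values were seen. Some of the genes analysed are not reported here. The simulated data had 200 changed regions, independent noise per library and no block. On them limma recovered 94% of log2 changes of 1 in REH H3K4me2, 6% in NALM6 and 90% in the H3K4me3 comparison.

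Same-numbered libraries deviated together in REH (correlations 0.13, 0.20 and 0.21) and NALM6 (0.45, 0.40 and 0.44), and not evenly for REH against Raji (-0.11, 0.30 and 0.09). Differently numbered REH libraries ranged from -0.17 to 0.03. In NALM6 replicates 2 and 3 also deviated together across numbers (0.41 and 0.35). Replicate 1 against 2 or 3 gave -0.46 to -0.41, so the NALM6 pattern set replicate 1 apart and is not particular to equal numbers. The main limma fits and the main test of NALM6 shares with bryostatin took no account of these pairs. Results with the numbers taken as pairs are given beside them.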

Additional observations from a re-analysis of the deposited data

How the results depend on the processing

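The choice of regions moved their number from 822 to 1281 where gene starts alone, not all transcript starts, set the distance and to 504 with equal peak numbers per library, and other limits gave 571 to 1099. Leaving out a REH library gave 841 to 1049.

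The 20 members changed by bryostatin in REH became 8 with maximum signal, 0 with mean signal per base and 51 with the replicate block. Without 1 library each they numbered 6 to 72. Among the upper 0.5 of regions by signal it was 4 of 167 members, where 63 of all 5396 regions were higher and 3 lower. The block left the NALM6 count at 0 and gave 103 neighbours higher in REH in place of 104. That count was 61 with maximum and 60 with mean signal. A GGAA run lay in 4.87% of windows of 1000 bp.

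With 5 libraries an exact sign-flip test cannot go below p = 0.0625, so no paired share could pass. Leaving out 1 library each gave mean differences of -35.8 to -31.5 points for NALM6 H3K4me2, -22.3 to -18.4 for REH H3K4me3, 4.58 to 4.95 for REH H3K27me3 and 6.04 to 12.4 for Raji H3K27me3. For NALM6 without replicate 1 of both groups, chosen after seeing the data, it was -39.7 with p = 0.125 in the exact test. The Raji H3K27me3 difference had p = 0.03125, unadjusted, in the exact test against all other distal regions (9.90 points) and with the upper 0.5 of peaks by signal (8.49 points). The change of NALM6 shares with bryostatin, 4.99 points, ran from -0.649 without untreated replicate 1 to 13.0 without treated replicate 1, and with the replicate block it had an exact p of 0.25.

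Untreated Raji libraries were shallower than treated ones, and with no peak required of the untreated Raji libraries alone the number of regions was 918. The cause of these shifts was not tested.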
